A study of Mus musculus with 24 samples.

Results

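Sprouty and Spred proteins, the ETS transcription factors Etv4 and Etv5, the pleckstrin-homology protein Phlda1 and the ephrin receptor Epha2 are known as genes that growth factor signalling through ERK switches on. Their transcripts were followed here in 24 libraries of mpkCCD cells, a mouse line of kidney collecting duct epithelium (cortical part). The genes were taken by name from the deposited table. Of the 10 names listed, Spry1, Spry2, Spred1, Spred2, Spred3, Etv4, Etv5, Phlda1 and Epha2 were found, which are 9 of the table's 12224 entries, and Spry4 was not analysed here. All 9 passed the filter on low values that left 11557 entries for testing.

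As background, receptor tyrosine kinases activate Ras, which passes the signal through Raf and MEK to ERK. Sprouty and Spred proteins are made in response and hold this cascade back, Spred proteins by bringing the Ras-inactivating protein neurofibromin to the membrane. Etv4 and Etv5 carry the signal on to target genes, and in the branching kidney they act downstream of the receptor Ret. In collecting duct cells the same cascade responds to epidermal growth factor.

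There were 4 groups with 6 libraries each. Wild-type (WT) cells and cells with a knockout (KO) of Gpr39, a receptor for extracellular zinc, received vehicle (0.1% DMSO) or 1 µM cpd1324, an agonist of that receptor, on the basolateral side for 2 h. All 4 groups had 10 µM ZnCl2 added, so the vehicle groups were exposed to zinc too. The cells had grown for 9 days on inserts without the vasopressin analogue dDAVP and then stood for 24 h in a simple medium. The labels name neither the edited part of Gpr39, the number of knockout clones nor whether replicates were separate cultures. The p-values therefore measure only the spread between these samples, which may be technical, and a difference between KO and WT cells cannot be told apart from a difference between clones.

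The recovered reads per library ranged from 29.8 M to 51.9 M. Levels are given per gene length in scaled units, the deposited value times 1 constant that sets the mean library total to 1000000. Gpr39 averaged 21.6 ± 1.61 scaled units in WT vehicle cells, 29.2 ± 1.33 in WT agonist cells, 9.37 ± 0.645 in KO vehicle cells and 9.40 ± 0.882 in KO agonist cells (SD, n = 6 each), and the KO cells were lower under vehicle by 1.16 ± 0.06 log2 (SE, limma adjusted p = 3.37e-14). Transcript counts of an edited gene need not fall to 0, so this checks the labels only in direction. Of 13 principal cell and epithelial markers 11 were in the table, with a summed level of 4101 to 4602 scaled units in WT vehicle, 8228 to 10819 in WT agonist, 4157 to 4617 in KO vehicle and 3814 to 4504 in KO agonist libraries, most of it from Krt18. That sum was higher in every WT agonist library than in any other, but the list did not move as a whole. With agonist in WT cells Krt18, Epcam and Cdh1 rose, and 5 of the 11, the principal cell genes Aqp2, Avpr2, Scnn1g, Scnn1b and Hsd11b2, fell, Scnn1b not under quantile scaling. Among all tested entries 28.6% rose and 28.6% fell in the same comparison, so such calls are common. The 3 of 6 intercalated cell markers in the table summed to 24.3 to 33.8 scaled units in WT vehicle, 17.9 to 29.5 in WT agonist, 46.2 to 57.7 in KO vehicle and 34.6 to 52.1 in KO agonist libraries, with every KO library above every WT one. Only 1 of these markers, Aqp6, passed the filter at a mean of 1 scaled unit, so most of that sum is from Aqp6. The proximal tubule marker Lrp2, 1 of 4 in the table, was at 8.06 to 10.6 in WT vehicle, 11.0 to 16.4 in WT agonist, 4.49 to 6.77 in KO vehicle and 4.66 to 8.91 in KO agonist libraries. Csf1r, the only one of 5 endothelial and immune markers, was at 22.2 to 41.2 scaled units over all groups, and Col1a1, the only one of 4 fibroblast markers, at 0.63 to 3.27. The part of these markers in the results below was not tested. Library totals also moved, the WT agonist mean being 1.18 times the WT vehicle mean against 0.976 times in KO cells, and giving every library the same total moved the median log2 change of all genes in WT cells from -0.01 to -0.24. In bulk RNA, fewer cells of a type and less RNA per cell cannot be told apart.

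In WT cells, 8 of the 9 genes rose with cpd1324, and none of the 9 passed the test in Gpr39 KO cells. The rise was largest for Phlda1 and Epha2, at 13.2 and 7.00 times the vehicle mean. It was 1.50 to 1.86 times for Spry1, Spry2, Spred1 and Spred2. Etv4 and Etv5 also rose, but from levels that scattered widely between the WT libraries, and Spred3 at 0.27 ± 0.12 log2 (adjusted p = 0.0518) did not pass. These calls are from limma on log2(scaled units + 0.5), fitted over all 24 libraries, with Benjamini-Hochberg adjustment and a threshold of 0.05. Among all tested entries 57.2% were called and 28.6% were higher with agonist in WT cells, so a call alone is common there. In KO cells 9.3% of all entries were called, so 0 of 9 is near that share. The 9 genes had a median log2 change of 0.88, against -0.01 for all entries, and 0.64 when every library was given the same total.

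**Figure D1:**
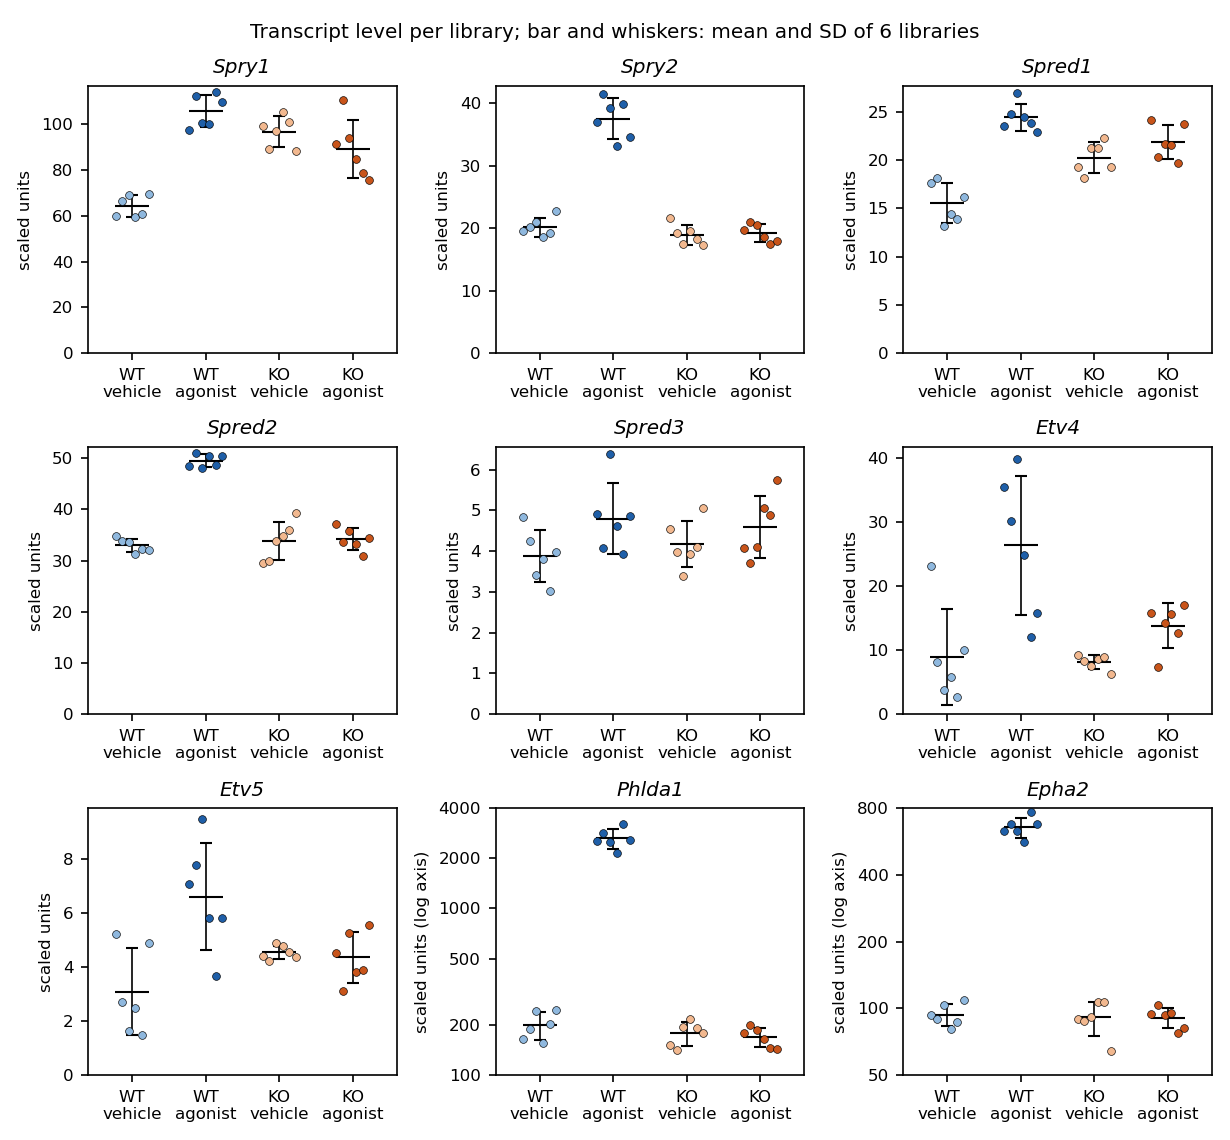
Level of each gene in scaled units per gene length (vertical axis, linear from 0, but a log axis for Phlda1 and Epha2), with each library as a point and the mean and SD of each group of 6 as bar and whiskers. Phlda1 in WT agonist libraries reached 2140 to 3198 scaled units and did not exceed 246 in any other library.

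The promoter windows of 3 genes are shown because they belong to a strongly changed receptor and to the Sprouty genes in the table. They are the 250 bases before RefSeq's transcript start on GRCm38.p6, read 5′ to 3′ on the gene's strand. The nearest GENCODE start is at the same base for Spry1 and Spry2 and 19 bases further downstream for Epha2. Epha2 lies at chr4:141300971-141301220 (+), Spry1 at chr3:37639697-37639946 (+) and Spry2 at chr14:105896820-105897069 (-). Capitals mark matches to the CRE core and to the capicua motif, and no capitals mean that neither these nor an ETS, AP-1 or CArG match was present.
Epha2: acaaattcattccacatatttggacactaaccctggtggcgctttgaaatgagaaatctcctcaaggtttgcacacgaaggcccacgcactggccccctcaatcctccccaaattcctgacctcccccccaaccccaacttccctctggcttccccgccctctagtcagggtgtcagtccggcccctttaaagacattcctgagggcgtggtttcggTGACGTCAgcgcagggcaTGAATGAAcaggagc
Spry1: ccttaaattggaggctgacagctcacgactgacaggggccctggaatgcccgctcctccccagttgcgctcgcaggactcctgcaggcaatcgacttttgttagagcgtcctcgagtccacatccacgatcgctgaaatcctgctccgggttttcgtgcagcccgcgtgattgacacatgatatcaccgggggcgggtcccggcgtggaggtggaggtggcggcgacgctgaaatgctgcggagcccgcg
Spry2: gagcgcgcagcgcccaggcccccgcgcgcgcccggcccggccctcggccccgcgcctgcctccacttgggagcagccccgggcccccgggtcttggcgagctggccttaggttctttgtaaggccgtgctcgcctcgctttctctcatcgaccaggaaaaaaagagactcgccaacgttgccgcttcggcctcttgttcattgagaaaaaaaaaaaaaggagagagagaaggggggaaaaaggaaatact
Windows were found for 7 of the 9 genes, with a pair of them for Etv5, giving 8 windows, and each motif was searched on both strands. Etv4 and Phlda1 were not among them. The nearest GENCODE start was 303 bases further downstream for Spred1 and at -1202 for the second Etv5 window. Part of the Spred2 window and of the first Etv5 window lay within an annotated transcript of the gene. The CRE core TGACGTC, read by cyclic AMP responsive factors, occurred in the windows of Epha2 (-33 to -26, as overlapping matches on both strands) and Spred2 (-53 to -47), counted from the RefSeq start, and in 2.78% of all 32851 windows. The motif TGAATGNA of the repressor capicua occurred in those of Epha2 (-15 to -8) and Spred3 (-10 to -3), and in 3.2% of all. The ETS motif CCGGAAG was in none of the 8 windows and in 6.91% of all, the AP-1 motif TGANTCA in none and 6.75%, and the CArG box in none and 1.47%. The 8 windows had a GC content of 55.6% to 71.2%, against a median of 52.4% for all windows. The GC box GGGCGG was in 6 of the 8 windows and 32.7% of all. These are letter matches in a short window on another build than the one named for the data, and describe the sequence only.

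Sprouty1 and Sprouty2 are cytoplasmic inhibitors that act between the receptor and Ras. Spry2 (chromosome 14) lay between 18.5 and 22.7 scaled units in WT vehicle libraries (median 19.8), 33.2 and 41.5 in WT agonist (38.1), 17.2 and 21.6 in KO vehicle (18.8), and 17.4 and 21.0 in KO agonist (19.2). The WT agonist libraries were all above every other library, and the other 3 groups overlapped. Spry2 rose by 0.88 ± 0.06 log2 in WT cells (SE, limma adjusted p = 1.31e-11). In KO cells its difference was 0.02 ± 0.06, with a 95% interval of -0.11 to 0.15.

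Spry1 (chromosome 3) had a different pattern. It ranged from 59.7 to 69.7 scaled units in WT vehicle libraries (median 63.5), 97.5 to 114 in WT agonist (105), 88.6 to 106 in KO vehicle (98.3) and 75.7 to 111 in KO agonist (88.3). The WT vehicle group was the low one, and the other 3 groups overlapped with each other. Spry1 rose by 0.72 ± 0.07 log2 in WT cells (limma adjusted p = 5.52e-09) and was higher in KO than in WT cells under vehicle by 0.59 ± 0.07 (adjusted p = 3.04e-07). These comparisons share the WT vehicle libraries. The agonist difference in KO cells was -0.12 ± 0.07 (adjusted p = 0.266). Without the second KO agonist library it was -0.19 (adjusted p = 0.0473), so 1 library decided that call.

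Spred1 and Spred2 restrain Ras through neurofibromin. Spred2 (chromosome 11) ran from 31.3 to 34.8 scaled units in WT vehicle libraries (median 32.9), 48.0 to 51.1 in WT agonist (49.5), 29.5 to 39.3 in KO vehicle (34.3) and 30.9 to 37.1 in KO agonist (34.0). All WT agonist libraries were above the rest. The rise in WT cells was 0.58 ± 0.06 log2 (limma adjusted p = 2.16e-09), and the KO difference was 0.02 ± 0.06 with an interval of -0.10 to 0.13. Spred1 (chromosome 2) ran from 13.2 to 18.2 scaled units in WT vehicle (median 15.3), 22.9 to 27.0 in WT agonist (24.2), 18.1 to 22.3 in KO vehicle (20.3) and 19.7 to 24.2 in KO agonist (21.6). The WT agonist and WT vehicle groups did not overlap, and the KO libraries lay in between, overlapping with both. Spred1 rose by 0.64 ± 0.07 log2 in WT cells (limma adjusted p = 3.41e-08), against 0.11 ± 0.07 in KO cells.

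Spred3 was the least abundant Spred gene, at 3.89 ± 0.640 scaled units in WT vehicle, 4.80 ± 0.877 in WT agonist, 4.17 ± 0.571 in KO vehicle and 4.60 ± 0.764 in KO agonist libraries (SD, n = 6 each). All groups overlapped, and it rested on 187 to 403 recovered reads per library. Its WT difference of 0.27 ± 0.12 log2 (interval 0.03 to 0.51) passed the threshold in 11 of 34 alternatives, among them quantile scaling (0.38, limma adjusted p = 0.00659), voom (0.31, adjusted p = 0.0411) and 8 fits leaving out 1 library, and was 0.05 once all library totals were set equal.

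Etv4 (chromosome 11) and Etv5 (chromosome 16), closely related ETS activators, had low levels and wide scatter in WT cells. Etv4 was at 23.1, 8.09, 3.73, 5.85, 2.63 and 10.1 scaled units in the 6 WT vehicle libraries. In WT agonist libraries it was at 35.4, 30.1, 39.8, 24.9, 12.0 and 15.8. The first WT vehicle library was above the fifth and sixth WT agonist libraries, and without it the vehicle values reached only 10.1. Etv4 lay between 6.27 and 9.26 scaled units in KO vehicle (median 8.45) and 7.39 and 17.1 in KO agonist libraries (15.0). Its coefficient of variation was 83.9% in WT vehicle and 13.6% in KO vehicle libraries.

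Etv4 rose by 1.72 ± 0.34 log2 in WT cells (limma adjusted p = 0.000142). In KO cells the difference was 0.70 ± 0.34 (adjusted p = 0.187), with an interval of -0.01 to 1.41. A fit of the KO groups alone called it at 0.70 (adjusted p = 0.0232). The difference between the WT and KO effects was 1.02 ± 0.49 (adjusted p = 0.0968), so Etv4 was not shown to respond differently in the 2 genotypes. Without the first WT vehicle library it was 1.35 (adjusted p = 0.00882), and without the fifth WT agonist library 1.22 (adjusted p = 0.0439).

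Etv5 lay between 1.50 and 5.23 scaled units in WT vehicle libraries (median 2.60), 3.68 and 9.49 in WT agonist (6.45), 4.23 and 4.89 in KO vehicle (4.50), and 3.12 and 5.55 in KO agonist (4.20). The WT groups overlapped, and the KO vehicle libraries were tightly grouped, with a coefficient of variation of 5.47% against 52.3% in WT vehicle. Etv5 rose by 1.06 ± 0.22 log2 in WT cells (limma adjusted p = 0.000209), and the KO difference was -0.08 ± 0.22. Recovered reads per library were 56 to 297 for Etv5 and 85 to 1080 for Etv4.

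The scatter of both Etv genes was shared between libraries of a group. Over the 6 WT vehicle libraries their log2 levels had Pearson r = 0.938 (exact permutation p = 0.00139, adjusted 0.0111) and Spearman rho = 1 (exact p = 0.00278, adjusted 0.0222), and r = 0.930 without the 2 libraries farthest from the median of Etv4. In WT agonist libraries r was 0.915 (exact p = 0.00556, adjusted 0.0148), rho 0.886 (exact p = 0.0333, adjusted 0.0889), and r 0.858 without the 2 farthest. In KO agonist libraries r was 0.774 (exact p = 0.0458, adjusted 0.0611), rho 0.714 (exact p = 0.136, adjusted 0.156), and r 0.0987 without the 2 farthest, so it rests on those. In KO vehicle libraries r was 0.0522 (exact permutation p = 0.939, adjusted 0.939) and rho 0.0857 (exact p = 0.919), with r 0.335 without the 2 farthest. All adjustments are over 8 relations, 4 of them between Phlda1 and Epha2. Every pair of the named genes was also correlated, on deviations from group means over the 24 libraries. The adjusted p-values do not cover a choice among those pairs. Etv4 with Etv5 had the highest r of them, at 0.900. The scatter of Etv4 was not shared with Etv5 alone. Etv4 had r = 0.667 with Spred1 and 0.647 with Spred3, but 0.071 with Spry2 and -0.362 with Phlda1.

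**Figure D2:**
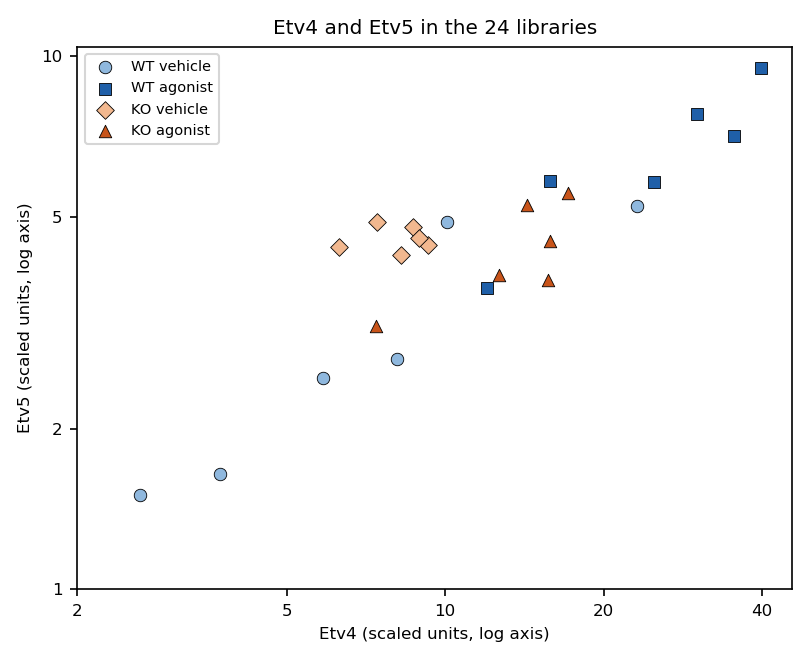
Etv4 against Etv5 in scaled units per gene length, on log axes, with 1 point per library and a colour and shape for each of the 4 groups. WT vehicle libraries spread from 2.63 to 23.1 for Etv4 and from 1.50 to 5.23 for Etv5, while KO vehicle libraries lie between 6.27 and 9.26 and between 4.23 and 4.89.

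Phlda1 (chromosome 10), a pleckstrin-homology protein of unsettled function, was the most responsive of the genes. It was at 156 to 246 scaled units in WT vehicle libraries (median 195), 2140 to 3198 in WT agonist (2560), 140 to 218 in KO vehicle (185) and 143 to 198 in KO agonist (172). Every WT agonist library stood far above all others. The log2 rise was 3.73 ± 0.12 (limma adjusted p = 1.47e-18) in WT cells, and the KO difference was -0.07 ± 0.12 with an interval of -0.32 to 0.18.

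Epha2 (chromosome 4), a receptor tyrosine kinase for ephrin-A ligands, was at 80.4 to 109 scaled units in WT vehicle libraries (median 91.4), 561 to 764 in WT agonist (652), 64.0 to 107 in KO vehicle (90.3) and 77.4 to 103 in KO agonist (93.7). As for Phlda1, only the WT agonist libraries stood apart. It rose by 2.80 ± 0.10 log2 in WT cells (limma adjusted p = 1.21e-17), and the KO difference was 0.01 ± 0.10 with an interval of -0.20 to 0.22. Within WT agonist libraries Phlda1 and Epha2 had r = 0.973 (exact permutation p = 0.00556, adjusted 0.0148) and rho = 0.943 (exact p = 0.0167, adjusted 0.0667), and r = 0.747 without the 2 farthest. Within KO agonist libraries r was 0.915 (exact p = 0.0167, adjusted 0.0333) with rho 0.714 (exact p = 0.136, adjusted 0.156). It was, in WT vehicle 0.833 (exact p = 0.0458, adjusted 0.0611) and, in KO vehicle, 0.350 (exact p = 0.514, adjusted 0.587), both with rho 0.771 (exact p = 0.103, adjusted 0.156). Without the 2 farthest libraries r was 0.640 in KO agonist, 0.555 in WT vehicle and 0.740 in KO vehicle. On deviations from group means over the 24 libraries, Phlda1 with Epha2 had r = 0.664. Spry1 was higher with each of them, at 0.759 with Phlda1 and 0.746 with Epha2, so the relation was not particular to this pair.

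Groups of WT vehicle and WT agonist libraries did not overlap for 6 of the 9 genes, against 19.8% of all tested entries that were higher in every WT agonist library. In KO cells the agonist effect was called for 0 of the 9 by limma, against 9.3% of all entries. None of the 9 had an unadjusted p below 0.05, and voom on recovered reads called 0 too. The difference between the agonist effects in WT and KO cells was called for 7 of the 9, all larger in WT, against 41.1% of all entries called and 21.5% called in that direction. It was 3.80 ± 0.17 log2 for Phlda1, 2.79 ± 0.14 for Epha2, 0.86 ± 0.09 for Spry2, 0.84 ± 0.10 for Spry1, 0.56 ± 0.08 for Spred2, 0.53 ± 0.10 for Spred1 and 1.14 ± 0.31 for Etv5. Adjusted p from limma ran from 3.01e-15 for Phlda1 to 0.00454 for Etv5. At equal library totals 7 were still called, against 7546 of 11568 entries. Spred2 was then at 0.29 (limma adjusted p = 0.0043) and Spred1 at 0.26 (adjusted p = 0.0417). Spred3, at 0.15 ± 0.17 (adjusted p = 0.506), and Etv4 did not pass.

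**Figure D3:**
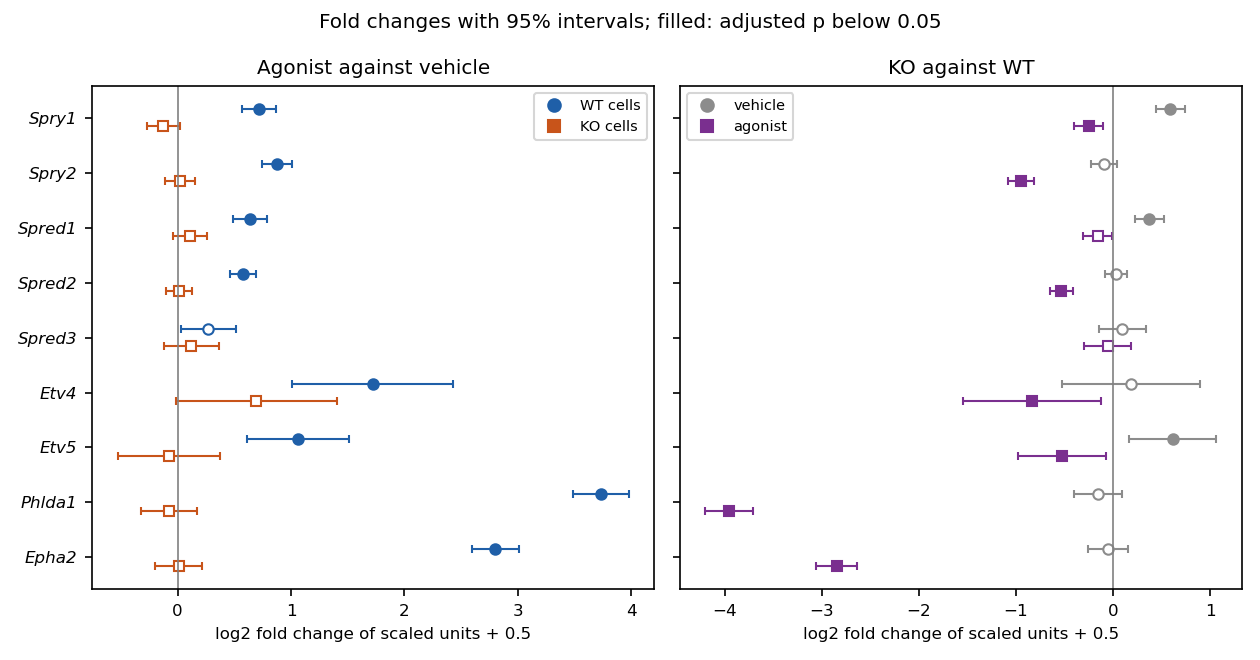
Log2 fold change of scaled units + 0.5 (horizontal axis) with its 95% interval for each gene, agonist against vehicle in WT and KO cells on the left and KO against WT cells under each treatment on the right, filled where the limma adjusted p was below 0.05. In WT cells values run from 0.27 for Spred3 to 3.73 for Phlda1, and in KO cells from -0.12 for Spry1 to 0.70 for Etv4.

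The genotypes were also compared under the same treatment. Under vehicle, 3 of the 9 genes were higher in KO cells, and none was lower, against 47.8% of all entries called and 23.9% called higher. They were Spry1, Spred1 by 0.37 ± 0.07 log2 (limma adjusted p = 0.000141) and Etv5 by 0.61 ± 0.22 (adjusted p = 0.0238). Spry1 was the only one whose KO and WT libraries did not overlap, against 13.2% of entries higher in every KO library. The Etv5 call was lost without the third WT vehicle library (0.49, adjusted p = 0.0719) or the fifth (0.47, adjusted p = 0.0752). Phlda1 differed by -0.15 ± 0.12 and Epha2 by -0.05 ± 0.10, neither past the threshold.

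Under agonist, 7 of the 9 genes were lower in KO than in WT cells, against 64.1% of all entries called and 32.1% called lower. Phlda1 was lower by 3.95 ± 0.12 log2, Epha2 by 2.85 ± 0.10, Spry2 by 0.95 ± 0.06 and Spred2 by 0.53 ± 0.06, and for these 4 the groups did not overlap, against 24.6% of entries lower in every KO library. Spry1 was lower by 0.25 ± 0.07 (limma adjusted p = 0.0039), Etv4 by 0.84 ± 0.34 (adjusted p = 0.037) and Etv5 by 0.52 ± 0.22 (adjusted p = 0.0406). At equal library totals these last 3 calls were lost, and Spry1 stood at 0.04 in the other direction. The Spry1 call was also lost under quantile scaling (-0.08, limma adjusted p = 0.298). Spred1, at -0.16 ± 0.07 (adjusted p = 0.0569), did not pass here and passed with voom (adjusted p = 0.0498), and Spred3 was at -0.05 ± 0.12. Leaving out single libraries ended the Etv4 call in 6 of the alternatives and the Etv5 call in 7, and left values of -0.67 and -0.41 at the weakest. This comparison shares its WT agonist libraries with the agonist effect in WT cells.

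The other genes of the same signalling system were counted for the agonist effect in WT cells from lists of known pathway members. These counts stand against 57.2% of all entries called, with 28.6% higher and 28.6% lower. At equal library totals 8380 of 11568 entries were called, with a median of -0.24 log2 over all entries. The list counts at that scaling, here and below, stand against that shift. All 4 other genes of a published MAPK activity score rose, namely the ERK phosphatase gene Dusp6 by 1.94 ± 0.09 log2, Dusp4 by 1.32 ± 0.12, the ephrin receptor gene Epha4 by 1.00 ± 0.06 and cyclin D1 (Ccnd1) by 0.78 ± 0.17, with a list median of 1.16. Of 14 other inhibitors of receptor tyrosine kinases and ERK in the table, 9 rose and none fell, against the 28.6% of entries in each direction, among them Dusp5 by 4.39 ± 0.14, the EGF receptor inhibitor gene Errfi1 by 2.73 ± 0.08, Dusp10 by 2.33 ± 0.10 and Dusp7 by 0.89 ± 0.06. At equal library totals 5 of these rose and 4 fell. In KO cells 0 of the 4 and 0 of the 14 were called, by limma or by voom, against 9.3% of all entries, with 2 of each at an unadjusted limma p below 0.05. The difference between the WT and KO effects was called for 3 of the 4 and 8 of the 14, all larger in WT, against 21.5% of all entries. Ccnd1, at 10.8 scaled units in KO vehicle and 15.6 in KO agonist libraries, was not shown to respond differently in the 2 genotypes. At equal library totals 5 of the 14 differences were called in each direction, where 7546 of 11568 entries were called.

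Upstream of these, 7 of 21 receptors and adaptors rose and 6 fell, close to the 28.6% of all entries in each direction. Their median was 0.07 log2 against -0.01. With the same total 3 rose and 11 fell, where the median of all entries was -0.24. Egfr rose by 0.75 ± 0.06 and Met by 0.52 ± 0.05, whereas Erbb2 fell by 0.64 ± 0.06 and Erbb3 by 0.53 ± 0.05. Of the 20 Ras, Raf, MEK and ERK genes 10 rose and 2 fell, against 28.6% of all entries in each direction. Calls in both directions together were near the 57.2% of all entries. The median was 0.10, and with the same total 5 rose and 9 fell. Examples were Rras2 at 0.80 ± 0.06, Nras at 0.43 ± 0.04 and Rras at 0.42 ± 0.05. Those that fell were Mras by 0.30 ± 0.07 and the ERK gene Mapk3 by 0.12 ± 0.04.

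Among 15 binding partners of Sprouty and Spred proteins, 11 rose and 2 fell, against 28.6% of all entries in each direction, with a median of 0.26 log2. Siah2, whose ubiquitin ligase degrades Sprouty proteins, rose by 1.27 ± 0.06, caveolin gene Cav1 by 1.28 ± 0.08, and the phosphatase subunit gene Ppp2ca by 0.76 ± 0.05. Those that fell were Nbr1 by 0.26 ± 0.04 and Mknk1 by 0.12 ± 0.04. At equal library totals 4 rose and 4 fell. For the factors around Etv4 and Etv5, 4 of 9 genes of the capicua repressor and of ETV protein turnover rose and 1 fell, against 28.6% of all entries in each direction. Together these calls were near the 57.2% of all entries called. Usp9x rose by 0.59 ± 0.07, Dda1 by 0.34 ± 0.05, Cop1 by 0.14 ± 0.04 and Atxn1l by 0.13 ± 0.04, and Det1 fell by 0.33 ± 0.06, but at equal library totals 1 rose and 6 fell, with Cop1 at -0.10 and Atxn1l at -0.11. The repressor gene Cic itself was at 0.03 ± 0.06 (limma adjusted p = 0.627). Of 14 other ETS genes 7 rose and 2 fell, against the same 28.6% in each direction, and together also near the 57.2% called. Ets2 was at 1.77 ± 0.07, Ets1 at 1.28 ± 0.05 and Etv3 at 0.67 ± 0.06, and those that fell were Ehf by 0.94 ± 0.08 and Elf3 by 0.25 ± 0.06. With the same total 4 rose and 6 fell.

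For Phlda1 and Epha2 the closest relatives moved less. The imprinted family member Phlda2 rose by 0.48 ± 0.09 log2, and Phlda3 was at 0.18 ± 0.13 (limma adjusted p = 0.249). Of 6 other Eph receptors in the table, Epha4 rose and Ephb3 fell by 0.44 ± 0.08, against 28.6% of all entries in each direction. With the same total 1 rose and 5 fell. Of 8 ephrins, the ligands of these receptors, Efna5 rose by 0.33 ± 0.07 (0.09 and not called at equal library totals) and 4 fell, Efnb1 by 0.68 ± 0.06, Efna1 by 0.66 ± 0.03, Efna3 by 0.63 ± 0.15 and Efna4 by 0.58 ± 0.09. These ephrin counts stand against the same 28.6% in each direction, and the ephrin median was -0.39 log2. With the same total none rose and 5 fell, where the median of all entries was -0.24. In KO cells 0 of the 8 ephrins were called by limma or by voom, near the 9.3% of all entries called by limma, and 0 had an unadjusted p below 0.05.

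With agonist in KO cells, where 9.3% of all entries were called, 2 of 21 receptors and adaptors, 3 of 14 other ETS genes and 2 of 6 other Eph receptors passed the test, and 6, 4 and 5 had an unadjusted limma p below 0.05. The Eph receptor median was 0.17 log2 against -0.01 for all entries. Erbb3 rose by 0.20 ± 0.05 log2, Fgfr3 by 0.26 ± 0.08, Ets1 by 0.21 ± 0.05, Elk3 by 0.34 ± 0.09, Ephb2 by 0.23 ± 0.05 and Ephb3 by 0.29 ± 0.08, and Elf5 fell by 0.53 ± 0.13. Limma and voom each called 0 genes among the core cascade, the Sprouty and Spred partners, the capicua and turnover genes and the PHLDA relatives, with 3, 2, 2 and 1 at an unadjusted p below 0.05 in limma. Under quantile scaling, where 1294 of 11557 entries were called, 2 of the 9 capicua and turnover genes rose and 1 of the 15 partners fell. At equal library totals, where 960 of 11568 entries were called, 1 of the 9 rose.

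**Figure D4:**
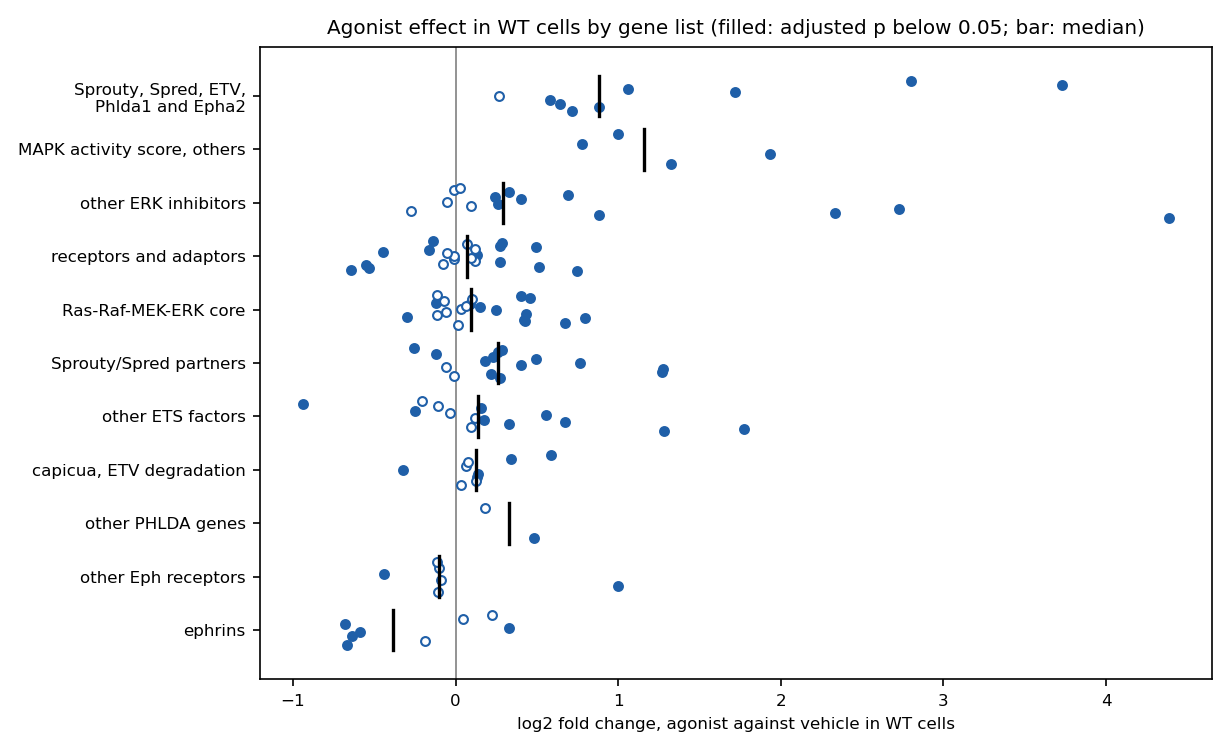
Log2 fold change of agonist against vehicle in WT cells (horizontal axis) for each tested gene of each pathway list, filled where the limma adjusted p was below 0.05, with a bar at the list median. The 9 named genes have a median of 0.88 and the ephrins one of -0.39, against -0.01 for all tested entries.

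Other genes were ranked by how closely their log2 levels followed each gene over the 24 libraries, a description that the WT agonist group shapes. For Phlda1 the 3 closest were Ereg (r = 0.998), Ptger4 (0.998) and Lif (0.997), and for Epha2 they were Maff (0.997), Lif (0.997) and Hbegf (0.996). Spry2 was closest to Dusp6 (0.985), Maff and Actg1 (both 0.982). Spry1 was closest to the zinc transporter gene Slc30a4 (0.934), the amino acid transporter gene Slc7a5 (0.932) and Rars (0.931). Slc30a4 averaged 53.9 scaled units in WT vehicle, 90.6 in WT agonist, 79.9 in KO vehicle and 71.6 in KO agonist libraries, the same order of groups as Spry1. Etv4 was closest to the semaphorin receptor gene Nrp2 (0.964), Pcolce2 (0.964) and Fbln2 (0.957), and Etv5 to Prkg2 (0.921), Nrp2 (0.897) and Hnrnpll (0.887). Nrp2 spread from 4.76 to 15.1 scaled units in WT vehicle libraries and from 8.07 to 10.6 in KO vehicle. Spred1 was closest to Slc19a2 (0.947), Oxsr1 (0.939) and Rhobtb3 (0.938), Spred2 to Chd1 (0.978), Gspt1 (0.967) and Ptpn12 (0.966), and Spred3 to Ttll4 (0.856), Nnt (0.828) and Ksr1 (0.824).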

How the data were processed

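RNA was poly(A)-selected and sequenced from 24 libraries, and group and replicate number came from the sample titles. The authors deposited 1 table of signal values, 1 column for each library, beside the length of each gene. The assembly GRCm39 and the tools DESeq, DESeq2 and STAR 2.7.8a appear, with no role given, per the submitters' processing notes. Strand handling in the counting is not given in the sources used here. The deposited signal times the deposited gene length gave multiples of 0.1, and 1 factor per library, from 0.754 to 1.46, made at least 99.8% of them whole to within 0.05. They were therefore taken to be reads over a library factor and over length.

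Values were multiplied by 92.1 to give scaled units. Entries whose mean reached 1 scaled unit were tested with limma 3.58.1 (R 4.3.3) on log2(scaled units + 0.5), with 4 group means in 1 fit, trended and robust moderation and Benjamini-Hochberg adjustment, called below 0.05, with 20 residual degrees of freedom. A fold change on this scale understates changes of low genes. Python 3.11.15 was used for the rest, and the test was checked on simulated data. Group overlap compares the libraries' values directly. Alternatives were pseudocounts of 0.1 and 2, no filter and a filter at 5, 3 other scalings, fits of the compared groups only, plain moderation, a replicate block, leaving out each library, and, added after seeing the data, voom on the recovered reads. Count tests were not run, because the recovered reads need the gene length.

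The genes and lists were chosen with earlier results of these data known. All listed genes are named, up to 4 called genes of each list by smallest adjusted p, list genes in counts of 5 or fewer, and the 3 genes most like each gene in pattern, except 1 list gene that is not reported here. Promoter windows came from RefSeq on GRCm38.p6.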

Additional observations from a re-analysis of the deposited data

Results flagged for a closer look

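Etv4 in the first WT vehicle library stood at 23.1 scaled units, and the gap to the next highest of its group was over Dixon's 95% critical value for 6 samples. It was the only one of 36 sets of gene and group to do so, and chance gives about 1 in 20.

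For 7 genes the agonist effect differed between WT and KO cells in the limma test of the difference itself. Among all entries 41.1% were called in that test, and 21.5% in the direction of these genes. The effect in WT minus that in KO cells was 3.80 log2 for Phlda1, 2.79 for Epha2, 1.14 for Etv5, 0.86 for Spry2, 0.84 for Spry1, 0.56 for Spred2 and 0.53 for Spred1. At equal library totals Spred2 was at 0.29 and Spred1 at 0.26.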

How the results depend on the processing

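Of 1556 combinations of gene, comparison and alternative, 1495 kept direction and side of the threshold, 18 lost and 24 gained a call, and 19 changed sign. The number of genes called stayed within 1.5 times its value in 171 of 174 alternatives. It was 1 rather than 0 for the agonist effect in KO cells with only those groups in the fit (Etv4), 0 to 1 across fits leaving out 1 library, and 4 rather than 7 for KO against WT under agonist with the same total in every library. That scaling also changed the sign of the Spred3 interaction (-0.10) and of the KO minus WT agonist differences of Spry1 (0.035), Spred1 (0.12) and Spred3 (0.21), none past the threshold. Leaving out 1 library changed the sign of uncalled values, with ranges of -0.0048 to 0.0599 for Spry2, -0.0208 to 0.0606 for Spred2, -0.144 to 0.0041 for Etv5 and -0.087 to 0.0603 for Epha2 in the KO agonist effect, of -0.0119 to 0.0696 for Spred2, -0.0646 to 0.519 for Etv4 and -0.104 to 0.0434 for Epha2 in KO minus WT under vehicle, and of -0.115 to 0.0246 for Spred3 under agonist. The cause was not tested. Deviations of same-numbered libraries had pair correlations of -0.315 to 0.488. Between WT agonist and KO agonist libraries the mean was 0.069 for same numbers and -0.014 for other numbers. Between WT vehicle and KO agonist libraries these means were -0.008 and 0.001. With 6 pairs in each comparison, whether the numbers pair the libraries was not settled. With a replicate block the counts were 8, 0, 7, 3 and 7, as without it. The edgeR and DESeq2 alternatives were not run, since whole reads could be had only through the gene length, and the filter at 5 gave no value for Spred3 and Etv5. Etv5, Etv4 and Spred3 had the lowest minimum reads per library of the 9 genes, and the cause of the scatter of Etv4 and Etv5 between WT libraries was not tested.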
